A study of Mus musculus with 12 samples.

Results

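Genes that fold proteins in the endoplasmic reticulum (ER) or act in the unfolded protein response were measured in the prefrontal cortex of mice given a virus for Ttr overexpression, a virus for Ttr knockdown or a control virus. The 40 genes were chosen by known function from the 55401 genes in the deposited tables and matched through their Ensembl identifiers. They are 13 chaperones and cochaperones, 5 genes of disulphide formation, 7 stress sensors and transcription factors, 5 genes of the PERK and ATF4 arm, 8 genes of ER-associated degradation and 2 subunits of the protein channel. All 40 were among the 18289 genes that passed the filter on low counts. The question put to them was whether making more of a secreted protein shows in these genes.

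The mice were male C57BL/6J animals aged 14 weeks, sampled 4 weeks after virus had been injected on both sides of the dorsomedial prefrontal cortex. Each group has 4 poly(A) RNA libraries. The control group (ctrl) received pAAV.1-CAG-GFP from Addgene, the overexpression group (Ttr-OE) received pAAV-CAG-GFP-P2A-Ttr-WPRE.bgH, and the knockdown group (Ttr-KD) received a vector with a short hairpin RNA (Ttr-shRNA-2) under the U6 promoter and GFP under CAG, followed by WPRE3. Both Ttr vectors were custom-made by the Charité viral vector core, so in a comparison with control an effect of Ttr and an effect of where the vector was made cannot be told apart. All 3 groups carry an adeno-associated virus that makes green fluorescent protein from CAG, a promoter that is not restricted to a cell type. The tissue was not sorted, so it holds cells with and without virus in shares that were not measured, and fewer cells of a type cannot be told apart from less RNA per cell. Libraries are numbered within a group, and nothing ties each number to a separate animal, so the p-values here reflect only the spread between the samples called replicates, which may be technical.

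Secreted and membrane proteins enter the ER through the Sec61 channel, fold there with the help of chaperones and disulphide isomerases, and are handed to degradation when they do not fold. When unfolded protein builds up, the sensors IRE1 (Ern1), PERK (Eif2ak3) and ATF6 raise the transcription of chaperone and degradation genes through XBP1, ATF4 and cleaved ATF6. The sensors themselves are switched by splicing of Xbp1 RNA, by phosphorylation and by cleavage, which counts per gene do not show, so the readout here is the level of their target genes. Transthyretin, the product of Ttr, is a secreted carrier of thyroid hormone that folds and assembles in the ER.

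Some promoters of these genes carry a sequence known from the response. RefSeq promoter windows on GRCm38.p6, from 250 bases before to 50 bases after the start, were found for 33 of the 40 genes, and none was found for Ero1l, Sec61a1, Atf6, Ppp1r15b, Manf, Hyou1 and Derl1. The ER stress element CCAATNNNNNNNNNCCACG, searched on both strands, was found in 8 of the 33 windows (24.2%), and in 37 of 27025 genes (0.137%) over the whole table. Each of the 8 is shown because it is the sequence through which ATF6 and XBP1 are known to reach chaperone genes. Capitals mark the CCAAT and CCACG parts, or their complements CGTGG and ATTGG where the element lies on the other strand. All are written 5′ to 3′ on the strand of the gene.
Hspa5: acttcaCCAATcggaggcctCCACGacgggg
Hsp90b1: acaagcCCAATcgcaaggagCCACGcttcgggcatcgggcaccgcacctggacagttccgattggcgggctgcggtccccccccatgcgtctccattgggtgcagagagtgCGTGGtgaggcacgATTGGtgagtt
Calr: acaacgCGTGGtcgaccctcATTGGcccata
Canx: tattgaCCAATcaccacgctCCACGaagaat
Dnajc3: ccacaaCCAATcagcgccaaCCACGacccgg
Creld2: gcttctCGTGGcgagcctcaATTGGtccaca
Pdia6: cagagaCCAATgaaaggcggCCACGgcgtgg
Syvn1: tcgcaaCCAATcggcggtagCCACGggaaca
The Hspa5 stretch is chr2:34772019-34772049 on the plus strand, and its match begins 65 bases before the RefSeq start. It lies inside the GENCODE span of the gene, which begins at 34771970. Hsp90b1 held 2 matches in the stretch chr10:86705527-86705662 on the minus strand, in opposite directions. The others are Calr at chr8:84847069-84847099 (minus), Canx at chr11:50325794-50325824 (minus), Dnajc3 at chr14:118937821-118937851 (plus), Creld2 at chr15:88819514-88819544 (plus), Pdia6 at chr12:17266485-17266515 (plus) and Syvn1 at chr19:6046526-6046556 (plus). A match is a description of the letters and not a measured site.

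An ATF4-type motif TGATGNAA, on either strand, was found in 4 of the 33 windows (12.1%), against 1219 of 27025 genes (4.51%). These were Asns, Chac1, Herpud1 and Trib3, of which the first 3 lie before the RefSeq start. These 3 are shown with the motif or its complement in capitals, since Asns and Chac1 are textbook ATF4 targets.
Asns: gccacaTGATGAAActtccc
Chac1: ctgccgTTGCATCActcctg
Herpud1: ggcgggTTGCATCAgcccgc
The stretches are chr6:7693219-7693238 (minus) for Asns, chr2:119351043-119351062 (plus) for Chac1 and chr8:94386311-94386330 (plus) for Herpud1. The Asns stretch lies inside the GENCODE span of the gene, which starts at 7693254 on the minus strand. The XBP1 or ATF6 element TGACGTGG, on either strand, was found in 0 of the 33 windows, against 193 of 27025 genes (0.714%).

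Library totals were 19879629 to 37166146 counts. Ttr, the vector's target, stood at 639, 261, 260 and 94.2 CPM (counts scaled here to a common library size with TMM factors) in the Ttr-OE libraries and at 0.580, 8.50, 0.491 and 0.781 in the control libraries. All overexpression libraries lay above all controls, and Ttr was higher by 7.01 ± 0.81 (SE) on the log2 scale (edgeR, adjusted p = 0.0168). In the Ttr-KD libraries it stood at 0.146, 1.86, 0.827 and 0.663 CPM, which overlaps the controls, with a log2 difference of -1.41 ± 1.16 (edgeR, adjusted p = 0.936). The library labels for overexpression are thus borne out by Ttr, while a lower Ttr level in the knockdown libraries was not detectable. Markers of cortical excitatory neurons were high in every library (summed 5683 to 7742 CPM over 10 genes).

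The summed level of the 40 genes is given beside Ttr for each library, and whether the sum follows Ttr was not tested. Between the Ttr-OE libraries Ttr spanned a 6.785-fold range, and the summed level of the 40 genes spanned 1.102-fold. In the order of replicates 1 to 4 that sum was 3419, 3724, 3439 and 3381 CPM. It was 3452, 3419, 3900.3 and 3684 CPM in the controls and 3658, 3419, 3612 and 3577 CPM in the Ttr-KD libraries. The groups overlap, and the highest sum belongs to a control library. The 40 genes took 0.336% to 0.384% of all counts in every library. The sum rests largely on abundant genes. Over the 12 libraries Canx, Calr, Hsp90b1 and Hspa5 had means of 399, 382, 378 and 299 CPM, against 9.28 for Sdf2l1. A change in genes of low level would thus hardly move the sum.

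**Figure D1:**
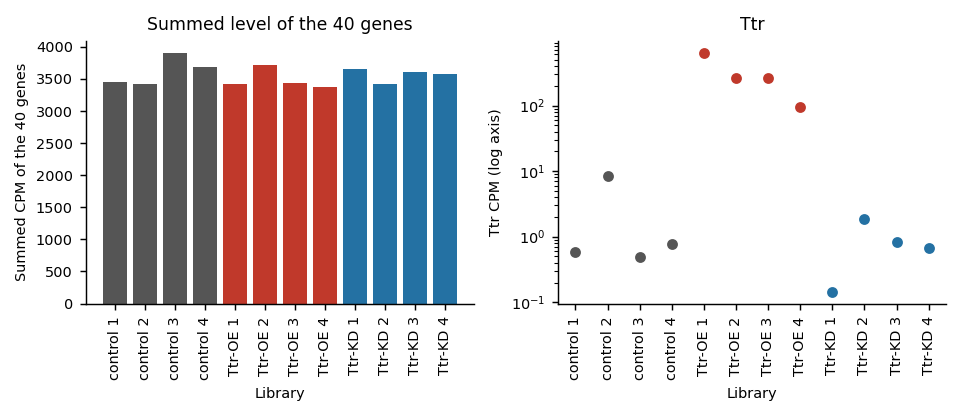
Left, summed CPM of the 40 ER genes in each of the 12 libraries (bars, axis from 0); right, Ttr CPM in the same libraries on a log axis (points). Grey is control, red overexpression and blue knockdown. Ttr in the overexpression libraries ran from 94.2 to 639 CPM, above every other library, while the summed ER genes stayed between 3381 and 3900.3 CPM in all 12.

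These genes are abundant in this tissue. On the deposited TPM values, which are per length and comparable between genes, the median gene of the 40 stood at 47.8 TPM against 14.3 TPM over all genes tested, and 35 of the 40 lay above the latter. Calr, a lectin chaperone of glycoproteins, was highest at 443 ± 42.1 TPM (SD over 12 libraries). It was followed by Hsp90b1, the ER form of HSP90, at 339.5 ± 24.9 TPM and by the prolyl isomerase Fkbp2 at 268 ± 21.1 TPM. Next came Canx, the membrane-bound partner of calreticulin, at 236 ± 10.1 TPM and Hspa5, which encodes BiP, the HSP70 of the ER, at 206 ± 20.9 TPM. Ranked by level, 34 of the 39 pairs of neighbouring genes had overlapping ranges over the 12 libraries. The sensor IRE1 (Ern1) stood at 4.48 ± 0.423 TPM and Trib3, a pseudokinase induced by CHOP, at 1.10 ± 0.301 TPM, the lowest of the 40. The 8 genes with the ER stress element had a median of 166 TPM (20.5 to 443), and the 25 with a window and no element a median of 50.2 TPM (1.10 to 268), so the ranges overlap.

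The genes also varied little between libraries of a group. Their median within-group SD was 0.107 on the log2 CPM scale, against 0.150 over all genes tested. It was 0.134 over the 15792 genes between the lowest and highest mean level of the 40. That range reaches down to Trib3, so those genes are not matched to the 40 on level. Whether the smaller SD goes with the higher level of the 40 was not tested. Derl1, a channel-like protein of degradation, and Canx had the smallest SDs, at 0.039 and 0.042. Trib3, with 14 to 33 counts a library, and Chac1, a glutathione-degrading enzyme induced by ATF4, had the largest, at 0.360 and 0.198.

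In Ttr overexpression against control, none of the 40 genes passed the threshold of 0.05 on the adjusted p (edgeR quasi-likelihood test, Benjamini-Hochberg over 18289 genes). The lowest adjusted p among them was 0.789, for Fkbp2. DESeq2 and limma-voom also called 0 of the 40 in each of the 3 comparisons. Over all genes 1 passed (0.00547%), and it was Ttr. The log2 differences of the 40 ran from -0.18 for Fkbp2 to 0.31 for Trib3 with a median of -0.036, against a median of 0.0038 over all genes tested. Below zero lay 27 of the 40 and above it 13, against 9399 of the 18289 genes tested above zero. On the deposited TPM values, fitted with limma and scaled without TMM factors, 24 lay above zero with a median of 0.0136, and the median over all genes tested was then 0.0456. The side of zero differed between the 2 fits, which differ in test, transform and scaling together, and which of these moved it was not tested. The median of the 40 was below that of all genes in both fits. Unadjusted p-values under 0.05 were found for 2 of the 40, against 6.26% of all genes. Groups that did not overlap in CPM were found for 0 of the 40, against 1.88% of all genes on the higher side and 0.837% on the lower side.

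Taken gene by gene, the intervals bound a change only against the spread between the libraries called replicates, which may be technical. For 39 of the 40 genes the 95% interval of the difference between overexpression and control lay within 1.5-fold in both directions, and for 37 within 1.3-fold, against 13602 and 10679 of the 18289 genes tested. The exception at 1.5-fold was Trib3. These bounds hold for whole tissue and not for the cells that made Ttr. Without the second Ttr-OE library, 8 of the 40 had unadjusted p-values under 0.05 (2215 of all genes), and the lowest adjusted p was 0.254 (edgeR). In the remaining Ttr-OE libraries 4 of the 40 (Herpud1, Manf, Pdia6 and Sel1l, the last named after its values were seen) lay below all controls, against 1001 of the 18289 genes tested, and none lay above them, against 1260.

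In Ttr knockdown against control, again none of the 40 passed, with a lowest adjusted p of 0.83 for Sdf2l1 (edgeR). Over all genes 1 passed (0.00547%), the immediate early gene Nr4a1. The differences of the 40 ran from -0.29 for Sdf2l1 to 0.26 for Trib3, 17 above zero and 23 below, with a median of -0.0058, against 0.0047 over all genes. Unadjusted p-values under 0.05 were found for 2 of the 40 (Sdf2l1 and Herpud1), against 5.68% of all genes. In 3 of the 40 all knockdown libraries lay below all controls, against 1.33% of all genes, and these were Sdf2l1, Herpud1 and Atf6, the last named after its values were seen. None lay above all controls, against 2.78% of all genes. The intervals lay within 1.5-fold for 39 of the 40 genes and within 1.3-fold for 38, against 13495 and 10583 of the 18289 genes tested.

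Overexpression against knockdown, which compares vectors from the same source, gave 0 of 40 genes past the threshold, with a lowest adjusted p of 0.967 (edgeR). Over all genes 1 passed (0.00547%), which was Ttr at 8.42 ± 0.91 on the log2 scale. The differences of the 40 ran from -0.22 for Atf4 to 0.21 for Edem1, with 18 above zero and a median of -0.0020, against 0.00020 over all genes. Unadjusted p-values under 0.05 were found for 2 of the 40 (Edem1 and Atf4), against 5.1% of all genes. The groups overlapped in all 40, against 1.23% of all genes higher and 1.14% lower with no overlap. The 3 comparisons share libraries in pairs and are not independent of each other.

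**Figure D2:**
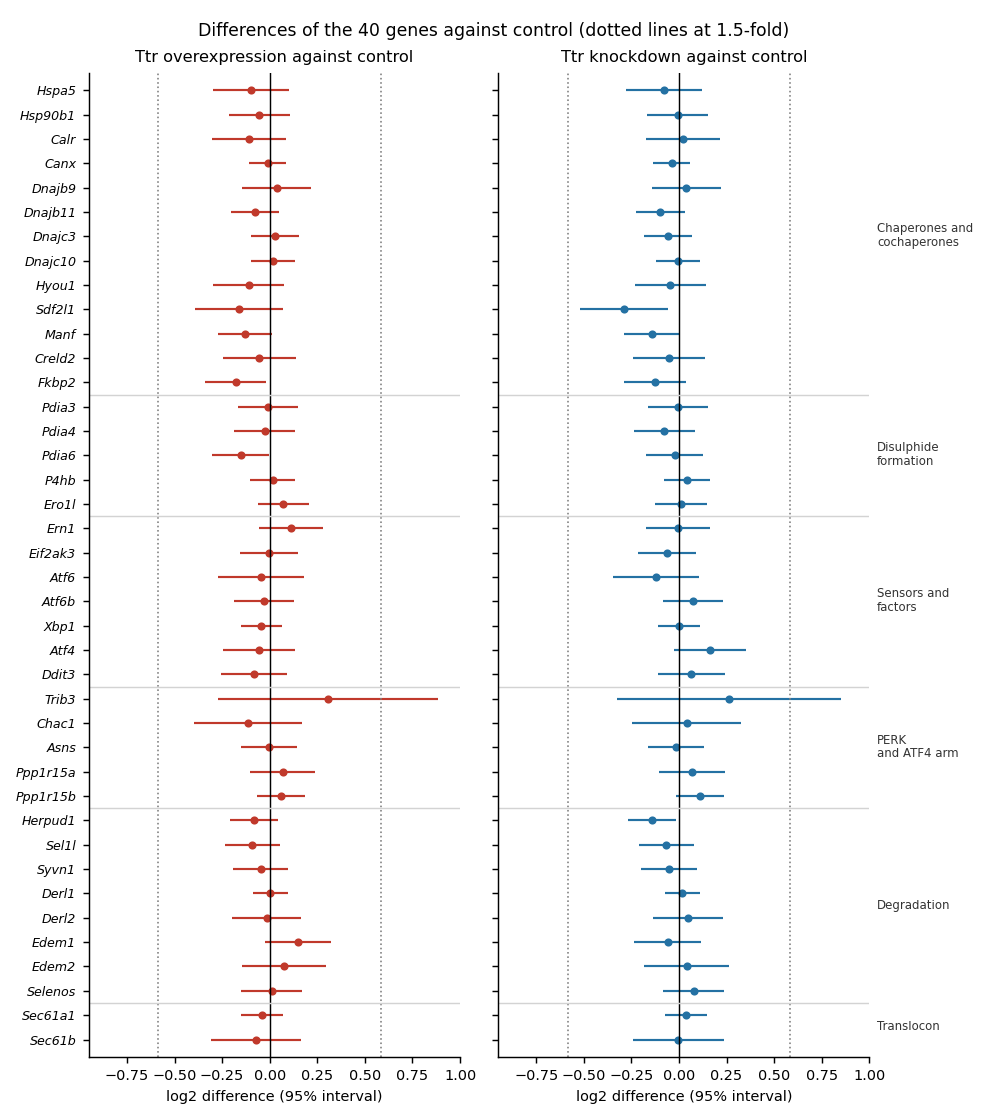
Log2 difference of each of the 40 genes from control (points) with its 95% interval (lines), for overexpression (left, red) and knockdown (right, blue), from edgeR on the deposited counts with 4 libraries a group. Dotted lines mark 1.5-fold. The intervals of 39 of 40 genes lie between the dotted lines in each panel, and Trib3 crosses them.

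Among the chaperones, Hspa5, the most used marker of the response and a carrier of the ER stress element, stood at 290.2, 262, 360.0 and 331 CPM in the controls, 282, 322, 286 and 272 in Ttr-OE and 309, 268, 314 and 287 in Ttr-KD. Its overexpression and knockdown libraries all fell inside the range of the controls. The log2 difference of overexpression from control was -0.098 ± 0.092 (95% interval -0.30 to 0.10), and that of knockdown -0.078 ± 0.093 (-0.28 to 0.12). These values changed with single controls left out. Without the second control library they were -0.17 and -0.15, and without the third -0.020 and -0.00050, the ends of their ranges with a library left out. Hsp90b1, with 2 matches to the element, stood at 364, 339, 438 and 393 CPM in the controls, 371, 398, 363 and 344 in Ttr-OE and 385, 362, 388 and 393 in Ttr-KD. These too lay within the control range, with differences of -0.056 ± 0.074 for overexpression and -0.0059 ± 0.074 for knockdown. Dnajb9, a BiP cochaperone that restrains IRE1 and a target of XBP1, stood at 50.2, 45.6, 54.5 and 42.1 CPM in the controls, 46.6, 52.7, 51.3 and 47.0 in Ttr-OE and 46.7, 55.7, 48.8 and 46.4 in Ttr-KD. The groups overlapped, and the differences were 0.037 ± 0.084 for overexpression and 0.037 ± 0.084 for knockdown.

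Sdf2l1, which works with a BiP cochaperone in the lumen, was the chaperone gene farthest from control in the knockdown group. It stood at 9.77, 9.94, 11.2 and 10.1 CPM in the controls, 7.84, 10.6, 8.17 and 10.1 in Ttr-OE and 8.54, 7.59, 9.07 and 8.37 in Ttr-KD, from 164 to 410 counts. All 4 knockdown libraries lay below all controls, while the overexpression libraries spread over both ranges. The differences were -0.29 ± 0.11 for knockdown (edgeR, adjusted p = 0.83) and -0.16 ± 0.11 for overexpression (adjusted p = 0.857). Neither passed.

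Fkbp2 stood at 74.8, 76.7, 67.9 and 81.1 CPM in the controls, 61.3, 72.4, 62.8 and 68.8 in Ttr-OE and 75.9, 62.2, 66.9 and 69.9 in Ttr-KD. Manf, a secreted ER protein that binds BiP and is known as a neurotrophic factor, stood at 39.1, 37.6, 41.2 and 43.8 CPM in the controls, 34.8, 41.5, 35.2 and 36.4 in Ttr-OE and 37.6, 36.1, 37.8 and 35.0 in Ttr-KD. In both genes the control libraries overlapped both other groups. The overexpression differences were -0.18 ± 0.075 for Fkbp2 and -0.13 ± 0.066 for Manf, and the knockdown differences were -0.13 ± 0.075 and -0.14 ± 0.067. Manf overlaps Rbm15b on the same strand, so its counts are uncertain. Over the 13 chaperone genes, 3 lay above zero for overexpression, 2 for knockdown and 6 for overexpression against knockdown, with medians of -0.078, -0.052 and -0.00045. Dnajc3, a BiP cochaperone that also inhibits PERK, was among the 6 genes with the smallest p-values of the last comparison, at 0.089 ± 0.058, from 60.2, 63.7, 65.9 and 62.1 CPM in Ttr-OE and 55.2, 60.8, 63.5 and 57.2 in Ttr-KD, which overlap.

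The level of these chaperones in the controls rested partly on the third control library. It held the highest CPM of the 12 libraries in 11 of the 18 genes for chaperones and disulphide formation, and the fourth control library in 4. The chaperone score (the mean of log2 CPM centred over the 12 libraries) was -0.014, -0.020, 0.14 and 0.069 in the controls, -0.073, 0.071, -0.053 and -0.036 in Ttr-OE and -0.0031, -0.090, 0.030 and -0.024 in Ttr-KD. Without the third control library 20 of the 40 genes, in place of 13, lay above zero in overexpression against control. A score of 16 cytosolic heat shock genes was also highest in that library, at 0.13, and its part in the chaperone levels was not tested.

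**Figure D3:**
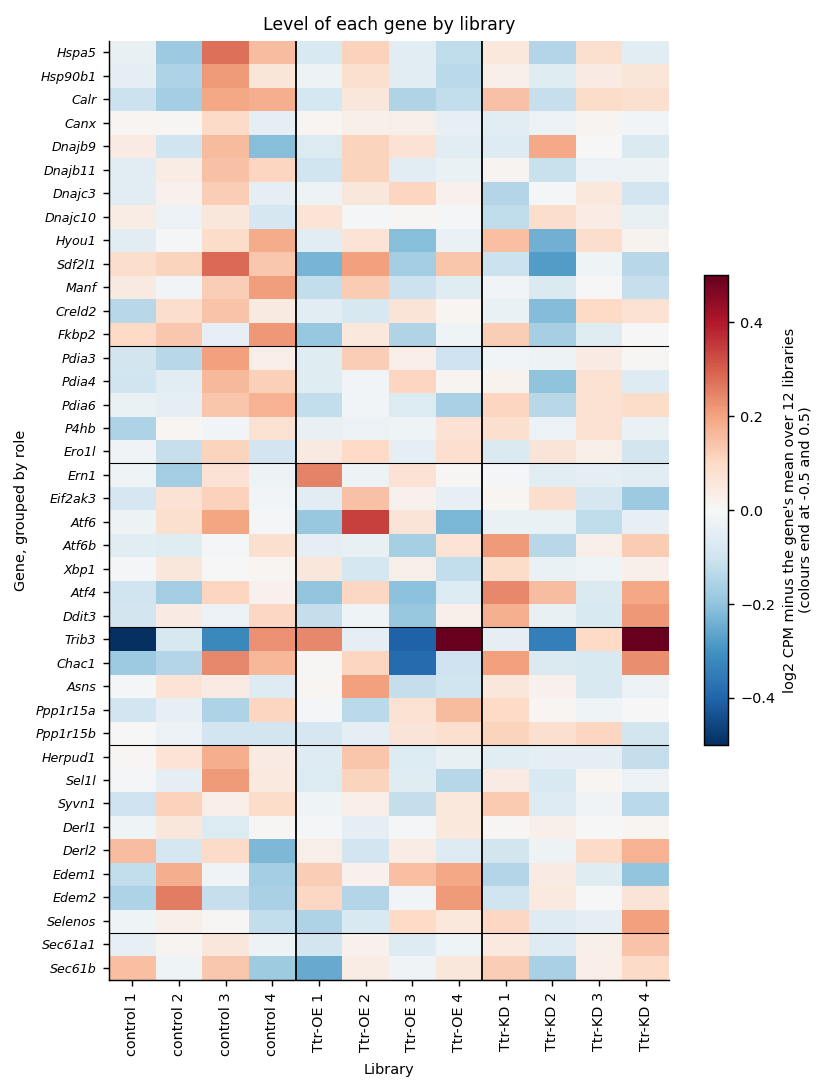
Log2 CPM of each of the 40 genes in each library, minus the gene's mean over the 12 libraries (colour scale ends at -0.5 and 0.5), with genes in rows grouped by role and the 3 groups separated by vertical lines. The third control library is high over many chaperones (highest in 11 of 18 folding genes), and no block of genes is high or low in all 4 libraries of a group.

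Disulphide formation was as close to control. Pdia6, an isomerase that carries the ER stress element, stood at 103, 102, 116 and 119 CPM in the controls, 96.6, 104, 100.3 and 94.1 in Ttr-OE and 114, 95.6, 111 and 112 in Ttr-KD. The second Ttr-OE library lay inside the control range and the other 3 below it. Its difference from control was -0.15 ± 0.069 for overexpression (edgeR, adjusted p = 0.792) and -0.024 ± 0.069 for knockdown, and overexpression lay -0.13 ± 0.069 from knockdown. Over the 5 genes, which include the isomerases Pdia3, Pdia4 and P4hb and the oxidase Ero1l, 2 lay above zero for overexpression and 2 for knockdown, with medians of -0.0083 and -0.0062.

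Of the sensors and their factors, Xbp1 varied least of the 9 readouts, with a coefficient of variation of 4.17% over the 12 libraries. It stood at 83.2, 86.9, 83.6 and 84.2 CPM in the controls, 86.9, 78.8, 85.4 and 76.8 in Ttr-OE and 89.1, 81.7, 82.3 and 85.1 in Ttr-KD. The differences were -0.043 ± 0.051 for overexpression and 0.00067 ± 0.051 for knockdown, and the intervals (-0.15 to 0.067 and -0.11 to 0.11) do not reach 1.3-fold. The counts take spliced and unspliced Xbp1 together.

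Ern1, the IRE1 sensor, stood at 12.1, 10.9, 12.9 and 12.1 CPM in the controls, 14.6, 12.0, 12.9 and 12.3 in Ttr-OE and 12.2, 11.8, 11.9 and 11.8 in Ttr-KD. The first Ttr-OE library was the highest of the 12 and the rest overlapped. The difference from control was 0.11 ± 0.078 for overexpression and -0.0058 ± 0.078 for knockdown. Atf6, the sensor that is cleaved in the Golgi, stood at 126.1, 136, 147 and 128 CPM in the controls, 113, 163, 134 and 109.7 in Ttr-OE and 125.6, 126, 117 and 125 in Ttr-KD. The knockdown libraries lay below the controls by a margin of under 1 CPM, and the overexpression libraries reached past the controls on both sides. Its differences were -0.12 ± 0.10 for knockdown and -0.047 ± 0.10 for overexpression.

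Atf4, the transcription factor translated when PERK is active, stood at 107, 102, 124 and 117 CPM in the controls, 100.2, 123, 99.7 and 109.6 in Ttr-OE and 136, 128, 109 and 131 in Ttr-KD. In 3 knockdown libraries it was above every control, and in the third it lay among them. The differences were 0.17 ± 0.088 for knockdown, -0.055 ± 0.088 for overexpression and -0.22 ± 0.088 between the last and the first (edgeR, adjusted p = 0.967). Ddit3, which encodes the pro-death factor CHOP, stood at 17.5, 19.2, 18.3 and 20.1 CPM in the controls, 17.2, 18.4, 16.4 and 19.0 in Ttr-OE and 21.1, 18.2, 17.7 and 21.7 in Ttr-KD. The groups overlapped, with differences of -0.082 ± 0.081 for overexpression, 0.065 ± 0.081 for knockdown and -0.15 ± 0.081 for overexpression against knockdown. Ddit3 is listed under 2 identifiers, of which the one with no counts was left aside, and it overlaps Mars on the other strand, so its counts are uncertain. Over the 7 sensors and factors, 1 lay above zero for overexpression and 4 for knockdown, with medians of -0.043 and 0.00067.

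In the PERK and ATF4 arm, Trib3 stood at 0.580, 0.807, 0.682 and 0.998 CPM in the controls, 1.01, 0.825, 0.645 and 1.33 in Ttr-OE and 0.825, 0.672, 0.913 and 1.28 in Ttr-KD. The fourth library of each group was its highest and the groups overlapped. At 14 to 33 counts a library its differences were 0.31 ± 0.27 for overexpression (95% interval -0.27 to 0.88) and 0.26 ± 0.27 for knockdown (-0.33 to 0.85), so a change as large as 1.5-fold was not detectable at this depth. The overexpression value was 0.11 without the fourth Ttr-OE library, the knockdown value 0.085 without the fourth Ttr-KD library, and without the fourth control library they were 0.45 and 0.40. Ppp1r15b, the constitutive partner of the phosphatase that reverses PERK signalling, stood at 60.1, 58.8, 56.2 and 56.3 CPM in the controls, 56.6, 58.0, 62.8 and 63.5 in Ttr-OE and 64.8, 63.5, 64.7 and 56.3 in Ttr-KD. Of the knockdown libraries 3 lay above all controls and the fourth among them, with differences of 0.11 ± 0.058 for knockdown and 0.058 ± 0.058 for overexpression. The other 3 genes of the arm were Ppp1r15a, the inducible partner, Asns, the asparagine synthetase, and Chac1, and over the 5 the medians were 0.058 for overexpression and 0.067 for knockdown, with 3 and 4 above zero.

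**Figure D4:**
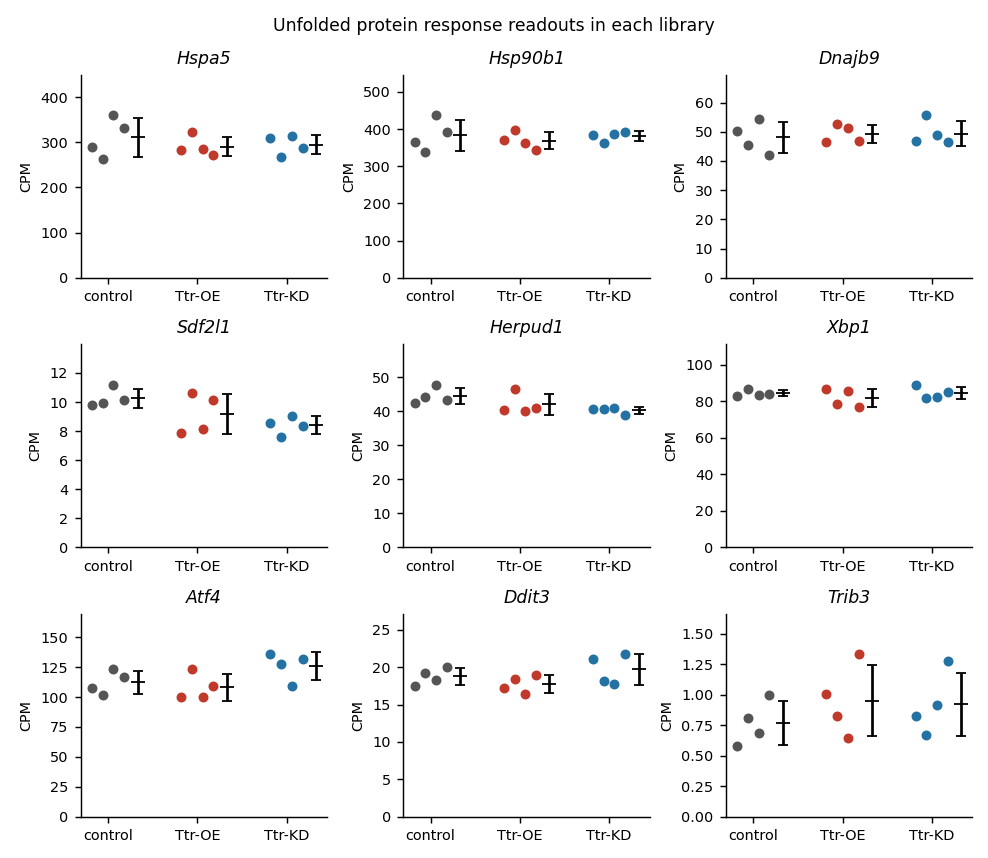
CPM of 9 readouts of the unfolded protein response in each library (points, replicates 1 to 4 from left to right) with the group mean and SD (bars to the right of the points, n = 4); each axis starts at 0. The groups overlap in every panel except Sdf2l1 and Herpud1, where all 4 knockdown points lie below all 4 control points.

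In ER-associated degradation, Herpud1, a membrane protein that gathers the ligase complex and a known target of the response, stood at 42.2, 44.1, 47.7 and 43.2 CPM in the controls, 40.3, 46.3, 40.1 and 41.0 in Ttr-OE and 40.6, 40.7, 40.8 and 38.7 in Ttr-KD. All knockdown libraries lay below all controls, and so did the Ttr-OE libraries other than the second. The differences were -0.14 ± 0.059 for knockdown (edgeR, adjusted p = 0.843), -0.081 ± 0.058 for overexpression (adjusted p = 0.860) and 0.061 ± 0.058 between the Ttr vectors. Edem1, a lectin that draws misfolded glycoproteins into degradation, stood at 20.2, 24.9, 21.7 and 19.6 CPM in the controls, 24.0, 22.3, 24.4 and 25.2 in Ttr-OE and 19.9, 22.6, 21.1 and 19.2 in Ttr-KD. The second control library and the second knockdown library lay inside the range of Ttr-OE, and the others below it. Its differences were 0.15 ± 0.081 for overexpression, -0.060 ± 0.081 for knockdown and 0.21 ± 0.081 for overexpression against knockdown, the smallest unadjusted p of that comparison among the 40 (edgeR, adjusted p = 0.967). Over the 8 genes, which also hold the adaptor Sel1l, the ligase Syvn1, Derl1, Derl2, Edem2 and the selenoprotein Selenos, 4 lay above zero for overexpression and 4 for knockdown, with medians of -0.0067 and -0.019. Derl2 overlaps Mis12 and Syvn1 overlaps Mrpl49 on the other strand, and the strand setting of the counting is not given in the sources used here.

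The channel subunit Sec61a1 stood at 55.8, 57.9, 59.8 and 56.3 CPM in the controls, 53.9, 58.3, 54.9 and 56.6 in Ttr-OE and 59.4, 54.9, 58.6 and 63.4 in Ttr-KD. These overlap, with differences of -0.040 ± 0.051 for overexpression and 0.038 ± 0.051 for knockdown, and -0.078 ± 0.051 between the Ttr vectors. Sec61b, its small partner, had 108 to 213 counts a library and differences of -0.071 ± 0.11 and -0.0047 ± 0.11.

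The 8 genes with the ER stress element lay mostly below zero in both comparisons with control, and whether they differ from the other genes was not tested. For overexpression 1 of the 8 lay above zero with a median of -0.055, against 9 of the 25 genes with a window and no element (median -0.016). For knockdown 1 of the 8 lay above zero with a median of -0.045, against 12 of the 25 (median -0.0032). Between the Ttr vectors it was 3 of the 8, with a median of -0.011, against 12 of the 25. None of the 8 passed in any comparison. Both comparisons with control use the same control libraries, so they are not separate observations. All of the 8 but Syvn1 are among the 18 genes for chaperones and disulphide formation. In 11 of those 18 the third control library held the highest CPM of the 12 libraries.

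The pathway's other genes were taken from 8 lists by function, 136 genes of which 132 passed the filter, and none passed the threshold in the 3 comparisons (edgeR). Their median differences were -0.0055 for overexpression, 0.014 for knockdown and -0.0022 between the Ttr vectors, with 61, 74 and 65 above zero. Unadjusted p-values under 0.05 were found for 4 of them in overexpression against control, 5 in knockdown against control and 6 in overexpression against knockdown, against 6.26%, 5.68% and 5.1% of all genes. The lists of protein translocation (14 genes), glycosylation and quality control (14) and ER export (17 tested) had medians between -0.0094 and 0.019 in comparison with control.

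The kinases, phosphatases and targets of the integrated stress response outside the 40 (17 tested) held the largest difference of the 132. Eif2ak2, which encodes PKR, an interferon-induced kinase that acts on the same initiation factor as PERK, stood at 6.59, 5.73, 6.88 and 4.42 CPM in the controls, 6.19, 5.75, 15.9 and 13.7 in Ttr-OE and 11.8, 18.6, 10.0 and 62.0 in Ttr-KD. All knockdown libraries lay above all controls, and the fourth far above the other 3. Its difference was 2.10 ± 0.54 for knockdown and 0.79 ± 0.54 for overexpression (edgeR, adjusted p = 0.518 and 0.859). A list of 10 interferon-induced genes summed to 93.2 to 1194 CPM in Ttr-KD, 26.9 to 62.7 in the controls and 35.3 to 166 in Ttr-OE. Each of the 10 lay above all controls in the knockdown libraries, against 2.78% of all genes, and none passed the threshold. Nupr1, a stress-induced transcription cofactor, stood at 3.81, 4.08, 6.17 and 4.38 CPM in the controls, 5.00, 8.35, 7.02 and 6.26 in Ttr-OE and 4.08, 4.66, 4.85 and 5.26 in Ttr-KD, a difference for overexpression of 0.52 ± 0.18 (edgeR, adjusted p = 0.646). Its Ttr-OE libraries overlapped the controls through the third control and the first Ttr-OE library.

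Other named members of these lists did not pass either. In further regulators of the response (14 tested) Wfs1, the ER protein wolframin, differed from control by 0.33 ± 0.16 for overexpression and 0.40 ± 0.16 for knockdown, with overlapping groups (edgeR, adjusted p = 0.807 and 0.843). Among 20 further folding genes the smallest p-values for overexpression belonged to the prolyl isomerases Fkbp10 and Fkbp7, at 0.24 ± 0.10 and 0.37 ± 0.19. In degradation (18 genes) Sel1l3, a relative of Sel1l, and Ufd1, a partner of the extracting ATPase p97, lay at -0.23 ± 0.088 and -0.14 ± 0.058 for knockdown. All knockdown libraries lay below all controls in these 2 of the 18, against 1.33% of all genes. In the amino acid genes driven by ATF4 (18) the cystine carrier Slc7a11 lay at 0.57 ± 0.26 and the cysteine-making enzyme Cth at -0.24 ± 0.14 for overexpression. In the cytosolic heat shock genes (16) Hspa1b and Hsp90ab1 lay at -0.36 ± 0.16 and -0.14 ± 0.065 for overexpression, with 11 of the 16 below zero.

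Several markers of other cells differed more between the groups than the ER genes did. For overexpression 14 of 15 mural and meningeal markers lay above zero with a median of 1.13. In 8 of the 15 all Ttr-OE libraries lay above all controls, against 1.88% of all genes. The 15 summed to 234 to 348 CPM against 157 to 219 in the controls. Much of these sums was Rgs5, at a mean of 117 CPM in Ttr-OE against 109 in the controls. Pdgfrb (26.0 against 23.6 CPM) and Kcnj8 (3.84 in both) also differed little, so the list did not rise as a whole. For knockdown 12 of the 15 lay above zero with a median of 0.43. In 2 of the 15 all knockdown libraries lay above all controls, against 2.78% of all genes. Oligodendrocyte markers lay below zero in 8 of 8 for both comparisons with control (medians -0.30 and -0.48), with sums of 3710.0 to 9120 CPM in the controls, 3673 to 5378 in Ttr-OE and 2280 to 5315 in Ttr-KD. Striatal markers summed to 294 to 1135 CPM in the controls, 257 to 1449 in Ttr-OE and 243 to 1276 in Ttr-KD. Excitatory neuron markers lay below zero in 8 of 10 for overexpression (median -0.14) and 7 of 10 for knockdown (median -0.084). For knockdown 2 of the 10 lay below all controls, against 1.33% of all genes. Their sums overlapped, at 6400 to 7137 CPM in the controls, 5683 to 7344 in Ttr-OE and 5877 to 7742 in Ttr-KD. All 12 immediate early genes lay above zero in both comparisons with control, with medians of 0.36 for overexpression and 0.90 for knockdown. In 9 of the 12 all knockdown libraries lay above all controls, against 2.78% of all genes. For overexpression this held in 1 of the 12, against 1.88% of all genes.

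Among markers of vessel and immune cells, all 7 endothelial markers lay above zero for overexpression and for knockdown (medians 0.23 and 0.24), with sums of 185 to 209.8 CPM in the controls, 211 to 276 in Ttr-OE and 207 to 269.7 in Ttr-KD. All 8 microglial markers did so too (medians 0.25 and 0.27), with overlapping sums of 429 to 504, 409 to 811 and 488 to 713 CPM. Plasma cells are rich in ER folding genes, and 11 lymphocyte and plasma cell markers were listed, of which 5 passed the filter. The 11 summed to 50.4 to 71.7 CPM in the controls, 33.1 to 125 in Ttr-OE and 34.2 to 51.1 in Ttr-KD. Most of that sum was Ighm, at a mean of 52.7 CPM in the controls, 46.9 in Ttr-OE and 36.6 in Ttr-KD. The score of the 5 (mean of centred log2 CPM) was higher in all Ttr-OE libraries (-0.11 to 2.23) than in all controls (-0.81 to -0.46). It was -0.87 to 0.30 in Ttr-KD. Igkc, an antibody light chain, had 57 to 2417 counts in Ttr-OE against 7 to 66 in the controls, a log2 difference of 4.24 ± 1.03 (edgeR, adjusted p = 0.527). Jchain, which joins antibodies into polymers, had 23 to 308 counts against 5 to 22, while Mzb1, an ER protein of plasma cells, had at most 4 counts in any library. In 1 of the 5 tested markers all Ttr-OE libraries lay above all controls in CPM, against 1.88% of all genes. In replicates 1 to 4 of Ttr-OE the 11 markers, Ighm included, summed to 125, 61.8, 33.1 and 117 CPM. The score of the 5 was 1.89, -0.11, -0.068 and 2.23 in the same order. The 40 ER genes summed there to 3419, 3724, 3439 and 3381 CPM. The part of these cells, the excitatory neurons included, in the small differences of the ER genes was not tested.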

How the data were processed

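RNA was measured in 12 libraries of prefrontal cortex, 4 per group, made with poly(A) selection and a directional kit from 500 ng of total RNA, per the labels' protocols. Bcl2fastq 2.20.0.422, UMI-tools, featureCounts, DESeq2 and GRCm38 (mm10) appear, with no role, per the submitters' processing notes. Which aligner, strand setting and duplicate removal were used is not given in the sources used here. The authors deposited counts per gene in whole numbers without normalization. Dividing these counts by 1 length for each gene gave the deposited TPM, with 100% of values of 13457 genes within 0.01 (log2). Another deposited table holds variance-stabilised log2 values, and how the authors made them is not stated.

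Of 55401 identifiers, 55141 were matched to symbols. Counts were tested in R 4.3.3 with edgeR 4.0.16 (quasi-likelihood test, TMM factors, default expression filter, 1 fit of 3 group means over 12 libraries, two-sided, Benjamini-Hochberg over 18289 genes, threshold 0.05). Each ± after a log2 difference is an SE, taken as the size of the difference over the square root of the test's F. Intervals are 95% intervals from that SE. The prior degrees of freedom were 4.10 and the square root of the common dispersion 0.126. The steps were tested on simulated data. Alternatives used other scalings and filters, DESeq2 1.42.0, limma 3.58.1 on voom, TPM (pseudocounts 1 and 0.1) and variance-stabilised values, fits of 2 groups, the replicate number as a block and each library left out. The members and lists were chosen with earlier results of these data known. Named genes are, in each comparison, any member that passed, the 6 members with the smallest p-values, 9 readouts (Hspa5, Hsp90b1, Dnajb9, Sdf2l1, Herpud1, Xbp1, Atf4, Ddit3 and Trib3), and the 2 genes with the smallest p-values of a described list, of which some are left out here. Promoters are RefSeq sequences on GRCm38.p6, and a planned look at protein ends was not done. Every pair of libraries within a group differed by more than sampling noise (chi-square per degree of freedom 5.37 to 28.3 over 18 pairs). Same-numbered libraries of different groups did not deviate together (correlations from -0.34 to 0.16 over 12 pairs). Figures were drawn with matplotlib 3.10.9 in Python 3.11.15.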

Additional observations from a re-analysis of the deposited data

Results flagged for a closer look

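Of 120 sets of 4 libraries (40 genes in 3 groups), 7 (5.83%) held a library whose gap to the nearest other, over the range of the set, was above Dixon's 95% critical value, and chance gives about 1 in 20. In knockdown, Pdia6 stood at 95.6 CPM in replicate 2 against 111 to 114 in the other libraries, Atf6 at 117 CPM in replicate 3 against 125 to 126, and Ppp1r15b at 56.3 CPM in replicate 4 against 63.5 to 64.8. Herpud1 was far from the others in 2 groups, at 38.7 CPM in knockdown replicate 4 against 40.6 to 40.8 and at 46.3 CPM in overexpression replicate 2 against 40.1 to 41.0. The overexpression value is the only one of that group inside the control range. P4hb stood at 110.3 CPM in overexpression replicate 4 against 102 to 103, and Edem2 at 19.9 CPM in control replicate 2 against 14.9 to 15.4.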

How the results depend on the processing

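None of the 40 genes passed in any of the 3 comparisons under any of the 24 alternatives, the replicate block included. The count over all genes moved more. For overexpression against control it was 1, and 20 with no filter, 39 with DESeq2, 0 with limma-voom, 2 on unfiltered TPM, 0 in the fit of 2 groups and 0 to 4 with a library left out. For knockdown against control it was 1, and 22 with no filter, 43 with DESeq2, 0 on TPM with either pseudocount, 2 in the fit of 2 groups and 0 to 10 with a library left out. For overexpression against knockdown it was 1, and 4 with DESeq2, 0 with limma-voom, 3 on unfiltered TPM and 0 to 2 with a library left out. The replicate numbers share no stated litter or day, and with the replicate block the counts were 1, 0 and 2.

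On TPM, the median for overexpression against control was 0.0136, or 0.0139 with the smaller pseudocount, with 24 of 40 above zero in each case, and the median between the Ttr vectors was 0.0440 with the smaller pseudocount. These fits, in limma and without TMM factors, moved the median over all genes tested as well, to 0.0456, 0.0507 and 0.0448. Leaving out a library gave 11 to 20 above zero for overexpression against control. On TPM, 1 gene (Sdf2l1) in place of 3 had all knockdown libraries below all controls, and over all genes 173 in place of 243. With DESeq2 or upper-quartile factors and on variance-stabilised values it stayed at 3 (Atf6, Herpud1 and Sdf2l1). With a library left out, genes of the 40 without overlap numbered 0 to 1 higher and 0 to 4 lower for overexpression against control (489 to 1260 and 255 to 1001 of the 18289 genes tested). For knockdown against control they numbered 0 to 1 higher and 3 to 4 lower (760 to 939 and 383 to 768), with Atf6, Herpud1 and Sdf2l1 lower each time. Between the Ttr vectors they numbered 0 to 2 higher and 0 to 3 lower (361 to 599 and 332 to 598).

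Of 936 values of named genes under alternatives, 54 changed sign, in each case of a gene whose reported difference was no farther from zero than the -0.056 of Hsp90b1. Xbp1 for overexpression against control was 0.0045 on TPM with either pseudocount. Xbp1 for knockdown against control was -0.0034 with DESeq2 factors, -0.0029 with upper-quartile factors, -0.011 with no filter, -0.0062 with the stricter filter, -0.0047 with DESeq2, -7.3e-05 with limma-voom, -0.0038 on variance-stabilised values, -0.0064 in the fit of 2 groups, -0.00026 with the block and -0.026 to 0.016 with a library left out. Hsp90b1 for knockdown against control was 0.00093 with limma-voom, 0.0032 on TPM and -0.061 to 0.063 with a library left out, and its overexpression value -0.11 to 0.013. Between the Ttr vectors Dnajb9 was 0.0056 with upper-quartile factors, 0.015 with no filter, 0.00063 with the stricter filter, 0.00037 with limma-voom, 0.048 and 0.049 on TPM with the pseudocounts 1 and 0.1, 0.00042 on variance-stabilised values and 0.00048 with the block. Hspa5 there was 0.027 and Xbp1 0.0011 on TPM. With a library left out Dnajb9 ran from -0.022 to 0.10 for overexpression, -0.026 to 0.10 for knockdown and -0.034 to 0.062 between the Ttr vectors, where Hspa5 ran from -0.074 to 0.011 and Trib3 from -0.14 to 0.22. The TPM values of overexpression given here lie on a scale where the median of all genes is 0.0456 against control and 0.0400 against knockdown. The cause of the changes in sign was not tested.

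Depth limits Trib3 (14 to 33 counts a library) and, less so, Sec61b and Sdf2l1. The values are of whole tissue with an unmeasured share of transduced cells, and splicing, phosphorylation and cleavage in the response were not measured.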
